A study of Drosophila melanogaster with 4 samples.

Results

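The bi locus, the chromosomal home of the T-box gene bi (optomotor-blind, locus tag Dmel_CG3578) on X, was examined in Polycomb ChIP-seq of wild-type Drosophila melanogaster embryos. Its members were all deposited enriched regions that overlapped X:4280000-4435000 on FlyBase r5, a window of 155.0 kb. There were 9 such regions among the 1189 of replicate 1 and 14 among the 1405 of replicate 2, or 23 of 2594 in all. The series held 2 libraries precipitated with antibody to Polycomb (Pc) and 2 input libraries, all made from 14 to 16 h old wild-type embryos (strain Oregon-R). No mutant, treated or other-stage group was part of the series, and whole embryos were used, so bound and unbound cells could not be told apart. The regions of each ChIP library were listed separately, each with a score whose scale was not stated. Values for the inputs were not used here, and the depth behind a region was unknown. Whether replicates were separate collections of embryos was not in the labels. The window was chosen by the regions and scores that both lists hold there, so all of its values are descriptions and were not tested.

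bi encodes a DNA-binding transcription factor of the Tbx2 group of T-box proteins. The name optomotor-blind refers to the loss of the optomotor turning response in mutant flies, whose optic lobes lack a set of motion-sensitive neurons. In the developing wing it is a target of the Dpp signal, and its expression is set by a long stretch of regulatory DNA. Within Polycomb repressive complex 1, Pc is the subunit whose chromodomain binds the histone H3 lysine 27 methylation laid down by Polycomb repressive complex 2. Genes for developmental transcription factors, T-box genes among them, are well-known Polycomb targets that are kept silent in cells where they are not used.

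The files held no gene names, so bi was placed by position only, and the place of its transcribed part inside the window was not analysed here. The gene table at hand was built on Release 6 of the genome, and no coordinate was taken from it. In the gene order of that release, the non-coding RNA gene lncRNA:CR32773 overlapped bi, and lncRNA:CR46499 was its nearest neighbour on the low-coordinate side. The nearest protein-coding genes were CG3626 on that side and CG3556 on the other. Whether the neighbouring genes lay inside or outside the Polycomb block was not tested.

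Polycomb covered most of the bi locus in both libraries. Regions of replicate 1 covered 139.7 kb of the window, or 90.1%, and regions of replicate 2 covered 122.2 kb, or 78.8%. Over the rest of X the covered share was 6.57% in replicate 1 and 6.35% in replicate 2, and over all of X, 2L, 2R, 3L, 3R and 4 it was 7.14% and 7.16%. The window made up 0.691% of X and held 8.72% of the covered bases of X in replicate 1 and 7.96% in replicate 2. Both libraries thus listed the locus at more than 10 times the share of the remaining X, by 13.7-fold and 12.4-fold.

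When X was divided into 144 adjacent stretches as long as the window, the bi stretch had the highest covered share in both libraries. The next highest was 65.2% in replicate 1 and 57.0% in replicate 2, both well short of bi. The median stretch was covered to 0% and 0.865%, and 76 and 68 stretches held no Pc region at all. A share of 50% or more was found in 8 stretches in replicate 1 and in 5 in replicate 2. Because the window was set around the bi regions while the other stretches were cut without regard to theirs, the order of the shares is a description only.

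**Figure D1:**
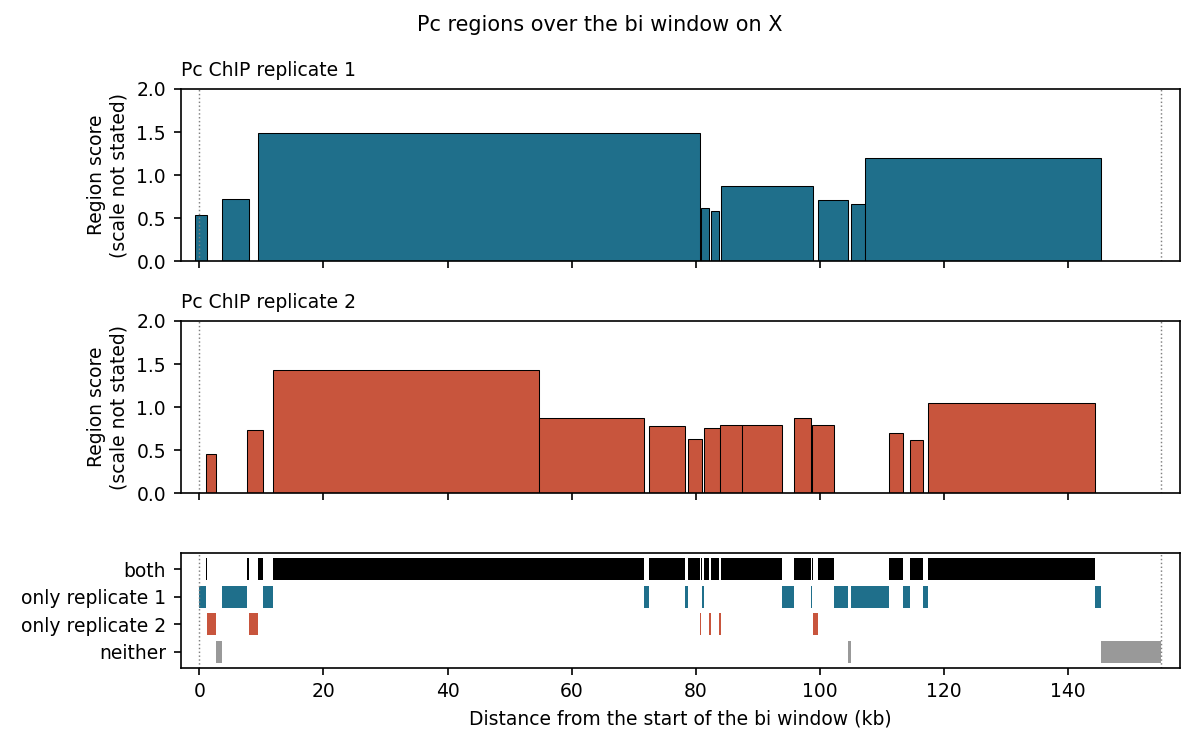
The upper panels draw each Pc region over the bi window as a box, with its score as height and its extent along the horizontal axis as distance in kb from the start of the window (dotted lines mark the window), and the bottom panel marks bases covered in both lists, in 1 list or in neither. A broad left part and a broad right part stand in both libraries, with scores of 1.49 and 1.20 in replicate 1 and 1.43 and 1.05 in replicate 2, and the gap of 8.78 kb between them in replicate 2 is mostly covered in replicate 1.

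In replicate 1 the locus was built from a broad left part, a lower middle part and a broad right part. The left part was 1 region from 4289379 to 4360759, which measured 71.4 kb and scored 1.49. It was the second widest Pc region of X and the 14th widest of the list, and its score ranked 35th of 1189. The middle part held 1 region of 14.9 kb, from 4364013 to 4378944, with a score of 0.869, between 4 narrower ones. The right part was 1 region from 4387273 to 4425349, of 38.1 kb and score 1.20, the 8th widest on X. These 3 regions held 88.6% of the region bases of the locus in replicate 1.

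The narrow members of replicate 1 scored lower than its 3 broad ones. At the left edge lay a region from 4279345 to 4281270, which crossed the window start (score 0.533), and one from 4283732 to 4288011 (score 0.719). Between the broad left region and the middle one were 4360821 to 4362190 (score 0.623) and 4362396 to 4363720 (score 0.584). Between the middle and the right were 4379696 to 4384566 (score 0.710) and 4385046 to 4387267 (score 0.666). Their widths ran from 1325 bases to 4871 bases, and none scored as high as the middle region.

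In replicate 2 the same ground was divided more finely. Of the 5 regions that met the broad left part, the widest ran from 4291855 to 4334678, with 42.8 kb and a score of 1.43, and the next from 4334772 to 4351726, with 16955 bases and a score of 0.872. The first of these ranked 53rd of 1405 by score and was the 3rd widest on X. The right part was a region from 4397378 to 4424276, of 26.9 kb and score 1.05. In both libraries the highest score fell on the left part and the second highest on the right part. The middle was not lower throughout in replicate 2. The regions there that met the middle region of 14.9 kb scored 0.787 to 0.875. These lay above the lowest over the left part (0.633) and over the right part (0.619). The 3 regions of 10 kb or more held 70.9% of the region bases of the locus in replicate 2.

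The remaining 11 members of replicate 2 were 1561 to 6443 bases wide. The first, from 4281103 to 4282663, had the lowest score of the locus in this library (0.461) and ranked 1301st of the list. The next, from 4287604 to 4290298, scored 0.731. A row of 7 regions then filled the ground from 4352513 to 4382325, up to the longest gap of the locus. The lowest score in this row was 0.633, from 4358674 to 4360988, and the highest was 0.875, from 4375875 to 4378494. The first region of the row, from 4352513 to 4358317, scored 0.777, and the last, from 4378747 to 4382325, scored 0.789. Between them, 4361343 to 4363849 scored 0.761, 4363914 to 4367483 scored 0.798 and 4367484 to 4373926 scored 0.787. All 7 scores of the row lay under the 1.43 of the widest left region and the 1.05 of the right one. The highest, 0.875, lay just above the 0.872 of the other broad left region. The row began inside the ground of the broad left region of replicate 1. Beyond the gap, 4391102 to 4393338 scored 0.694 and 4394473 to 4396643 scored 0.619.

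Regions of 10 kb or more numbered 3 of 9 in replicate 1, against 16.7% of all X regions and 17.4% of the list. In replicate 2 they numbered 3 of 14, against 14.7% on X and 14.9% of the list. The median bi region measured 4280 bases in replicate 1 and 3132.5 bases in replicate 2, where the medians for X were 2278 and 2065.5. The median score was 0.710 against 0.607 for all X regions in replicate 1, and 0.782 against 0.696 in replicate 2. Of the members, 7 of 9 and 10 of 14 scored above the X median of their library. Weighted by width, the mean score of the bi regions was 1.25 and 1.07, while that of all X regions was 1.12 and 1.08. By this measure bi stood above X in replicate 1 and just below it in replicate 2.

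**Figure D2:**
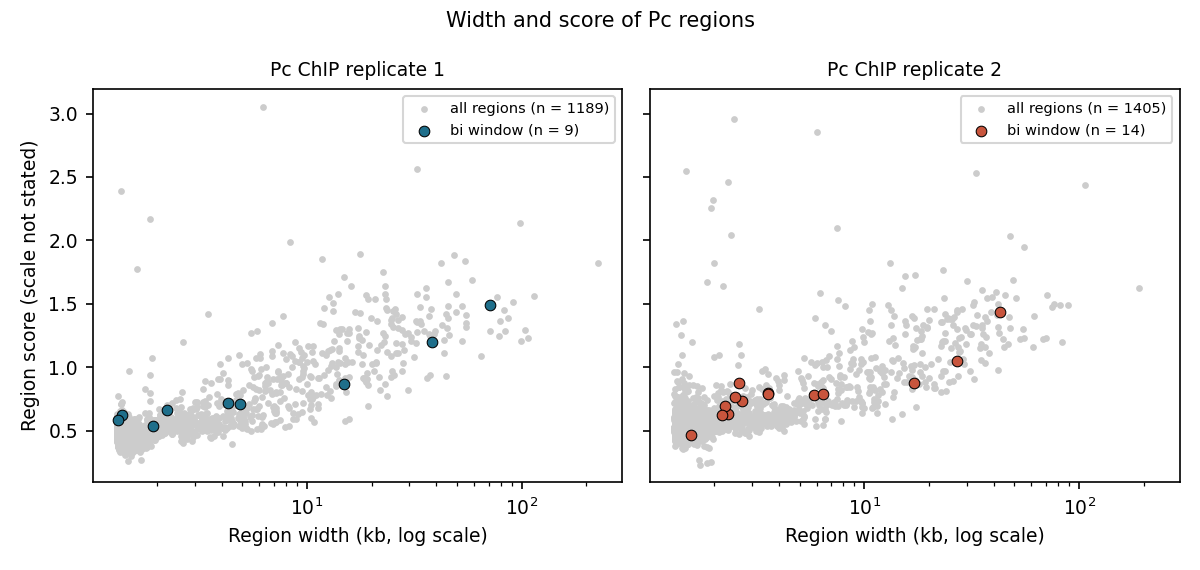
Each point is a Pc region, with its width in kb on a log axis and its score on the vertical axis, in replicate 1 (left) and replicate 2 (right); grey points are all regions and coloured points are the bi members. The bi members lie along the run of grey points, with the widest at 71.4 kb and score 1.49 in replicate 1 and at 42.8 kb and score 1.43 in replicate 2.

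Wider bi regions carried higher scores. Spearman's rho between width and score was 0.93 over the 9 members of replicate 1 and 0.85 over the 14 of replicate 2, where all X regions gave 0.75 and 0.57. The members share a library and neighbouring ground, so these values describe the lists. Regions of X with higher scores than any at bi existed in both libraries. The best bi score ranked 9th on X in replicate 1 and 11th in replicate 2.

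The lists shared most of the bi locus. Bases covered in both came to 118.2 kb, which was 84.6% of the bi bases of replicate 1 and 96.7% of those of replicate 2. As a share of the bases in either list, the shared bases made up 82.2% (the Jaccard index), while over the rest of X they made up 69.5%. Of 155 bins of 1 kb, 119 were covered to at least 50% in both libraries and 11 in neither, while 21 were covered in replicate 1 alone and 4 in replicate 2 alone. The libraries were in the same state in 83.9% of the bins. Counted by bases, the share in the same state was 83.5% in the window and 97.7% over the rest of X. Most bases of the rest of X were in neither list, so by this measure the window was lower.

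Where the lists parted, it was mostly replicate 1 that listed more. Bases found in replicate 1 alone came to 21.6 kb of the window and those in replicate 2 alone to 4.00 kb, a ratio of 5.38. Over the rest of X the totals were 283.7 kb and 233.5 kb, a ratio of 1.21. The difference between these ratios was not tested. Replicate 1 also listed more than replicate 2 in other broadly covered ground of X. Whether the size of the excess was particular to bi was not tested. In the 3 other X blocks nearest to bi in span, described below, replicate 1 alone listed 19.4, 26.6 and 3.98 kb. Replicate 2 alone listed 5.05, 5.89 and 0.033 kb there, within limits drawn from replicate 1. In 8 of the stretches of X, bi among them, the share was 50% or more in replicate 1, and in 5 of these it was so in replicate 2. In the others the order of the libraries was fixed by that limit. Replicate 1 also covered more in each of those 5, at the closest by 55.0% against 54.4% and 52.7% against 52.1%. The widest difference among the 5 was at bi, with 90.1% against 78.8%.

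Every bi region of replicate 2 touched a region of replicate 1, 14 of 14, where 60.7% of the list and 66.9% of its X regions did. In the other direction 8 of 9 did, against 64.7% of the list and 66.5% of the X regions. Overlap of 50% of the shorter region was met by 12 of 14, against 54.2% of the replicate 2 list and 59.4% of its X regions, and by 6 of 9, against 57.8% and 58.4% in replicate 1. With 50% of both regions required, 4 members of each list were found. That rule found 36.8% of the replicate 2 list and 38.1% of its X regions, and 43.5% and 45.5% in replicate 1. Of the 14 members of replicate 2, 8 lay wholly within regions of replicate 1, and 6 of these spanned less than 50% of the region that held them. The window was chosen with both lists in view, so nothing is read from the members' counts.

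The bi region of replicate 1 that was divided most was the broad left one, which met 5 regions of replicate 2 and was covered by them to 96.1%. Across the 39 X regions of 10 kb or more in replicate 1, the median number met was 1, and 2 of the 39, bi included, met 5 or more. The bi region measured 71.4 kb and was the second widest on X, and these numbers were not adjusted for width. The 5 scores of replicate 2 over this region ran from 0.633 to 1.43 and averaged 1.20 by shared bases, beside the single score of 1.49. The middle region, with a score of 0.869, met 4 regions and was covered to 85.3%, and their scores ran from 0.787 to 0.875. Scores of the lists were not put on a common scale, so their sizes are not compared between libraries. The right region met 3 regions and was covered to 82.2%. In the other direction, each of the 3 broad bi regions of replicate 2 lay in 1 region of replicate 1.

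Most gaps inside the bi locus were short. The 8 gaps between members of replicate 1 ranged from 5 to 2461 bases with a median of 385.5, and 6 of them were under 1 kb. The 13 between members of replicate 2 ranged from 0 to 8776 bases with a median of 734, and 8 were under 1 kb. Over all of X, 29.3% of gaps in replicate 1 and 23.5% in replicate 2 were under 1 kb. The window was set around the bi regions, while the gaps of X include those between isolated regions, so this contrast is a description only. At 4367483 and 4367484 a pair of replicate 2 regions abutted with no base between them, and at 4387267 and 4387273 a pair of replicate 1 regions were 5 bases apart. The number of listed regions thus counts divisions of a covered stretch as well as separate stretches.

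Much of the gap sequence of one library was listed in the other. Replicate 2 covered 71.3% of the 5621 gap bases of replicate 1, and replicate 1 covered 92.3% of the 20993 gap bases of replicate 2. Complete filling was seen in 4 of 8 gaps of replicate 1 and 9 of 13 gaps of replicate 2, while 2 and 1 gaps were not covered at all and 1 of the 13 held no base. Inside the locus the bases listed in neither library came to 4 short stretches, the longest from 4282664 to 4283731 (1068 bases). The others measured 64, 479 and 5 bases. No longer stretch between the first and the last member was free of a Pc region in both libraries.

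The longest gap at bi ran from 4382326 to 4391101 in replicate 2 (8.78 kb), between the middle and the right part. Replicate 1 covered 94.5% of it with 3 regions, and 1 of these, from 4385046 to 4387267, was the only bi region of either library with no counterpart. This gap held 38.5% of the bases that replicate 1 alone listed in the window. The start of the broad right region also differed, by 10105 bases. It lay inside this gap in replicate 1, at 4387273, and beyond it in replicate 2, at 4397378. Whether the gap was unenriched in replicate 2 or below its threshold could not be told without depth.

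The right edge of the bi locus was placed alike by both libraries. The last member ended at 4425349 in replicate 1 and at 4424276 in replicate 2, which is 1073 bases apart. Beyond it no Pc region was listed for 22.4 kb and 24.1 kb, and the first regions outside the window were 4447792 to 4457509 (score 0.991) and 4448410 to 4456979 (score 0.842). The left edge was less sharp. The widest region began at 4289379 and 4291855, which is 2476 bases apart, and narrow regions continued to its left. The last one outside the window ran from 4273504 to 4276603 in replicate 1 (score 0.541, 2.74 kb from the first member) and from 4269230 to 4270630 in replicate 2 (score 0.550, 10.5 kb away).

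Joining regions under 5 kb apart turned the bi locus into the widest block of X in replicate 1. That block ran from 4265176 to 4425349, measured 160.2 kb, held 12 regions and was the 7th widest of 599 in the genome. It took in 3 regions left of the window. In replicate 2 the long gap parted the locus into a block from 4281103 to 4382325, of 101.2 kb in 11 regions, and one from 4391102 to 4424276, of 33.2 kb in 3 regions. They were the second and the 18th widest of 139 on X, with a block of 106.8 kb ahead of the former. Joining under 10 kb gave 1 block of 143.2 kb in replicate 2, the widest on X, and left the 160.2 kb of replicate 1 as the second.

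**Figure D3:**
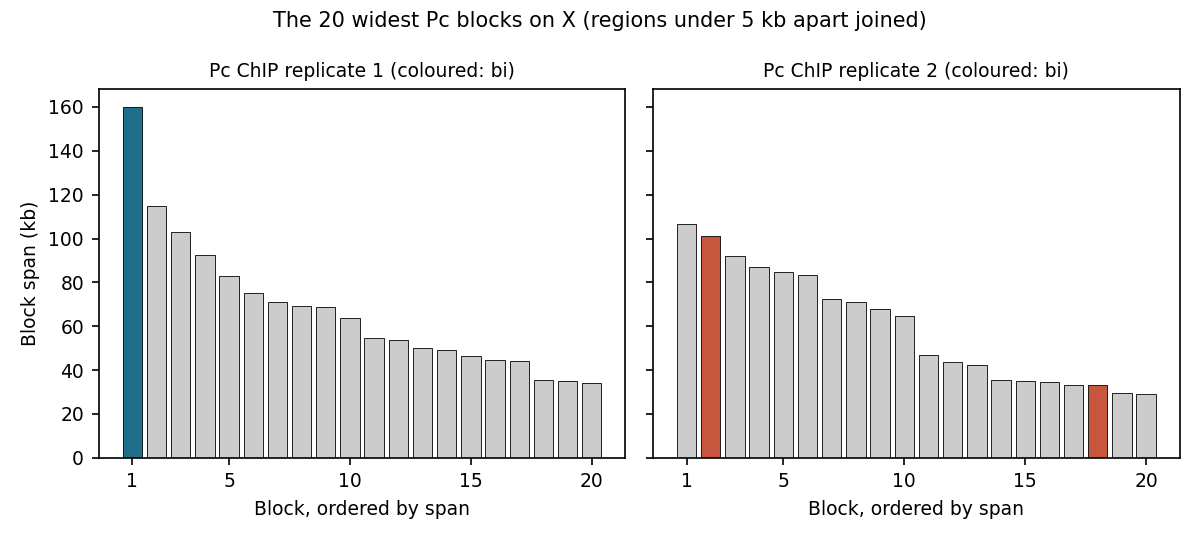
Bars give the span in kb of the 20 widest Pc blocks on X in each library, ordered by span, after regions under 5 kb apart were joined; coloured bars overlap the bi window. The bi block leads in replicate 1 with 160.2 kb, while in replicate 2 bi forms a block of 101.2 kb in second place and one of 33.2 kb in 18th place.

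The 3 other X blocks nearest to bi in span, all set on replicate 1, ran from 8616969 to 8731650 (114.7 kb), from 7071378 to 7174245 (102.9 kb) and from 9578037 to 9670298 (92.3 kb). Across its 160.2 kb the bi block was covered to 93.7% in replicate 1 and 78.1% in replicate 2. The others were covered to 89.6% and 77.1%, 80.8% and 60.7%, and 99.4% and 95.1%, in the same order, so bi lay between them in both libraries. Coverage was lower in replicate 2 in all 4 blocks, whose limits were drawn from replicate 1.

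Division into regions at bi was also within the range of these blocks. Per 100 kb, bi had 7.49 regions in replicate 1 and 9.99 in replicate 2, while the lowest values were 4.34 and 5.42 and the highest 16.5 and 12.6. The highest score within the bi block was 1.49 and 1.43, against 1.29 and 1.27, 1.03 and 0.824, and 1.54 and 1.30 in the others. Its width-weighted mean score, 1.21 and 1.06, compared with 1.12 and 1.07, 0.787 and 0.733, and 1.18 and 1.15. The longest gap within the bi block was 2.74 kb in replicate 1, against 3.42, 4.70 and 0.556 kb. In replicate 2 it was 10.5 kb, between the window and the regions to its left, against 3.15, 3.74 and 2.40 kb. The gap of 8.78 kb inside the locus was also longer than these. Only gaps between listed regions were counted, so uncovered ground at the limits of a block was left out. In the block that starts at 7071378, the first replicate 2 region started at 7085484. That uncovered end was longer than either bi gap. The Jaccard index of the lists was 77.9% over the bi block and 77.3%, 63.5% and 95.6% over the others. In replicate 1 the bi block was the longest in span, which was fixed because it is the widest block of X there. In replicate 2 it held the longest gap between listed regions, but not the longest uncovered stretch. In coverage, division and agreement of the lists it lay among the others, and the differences were not tested.

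**Figure D4:**
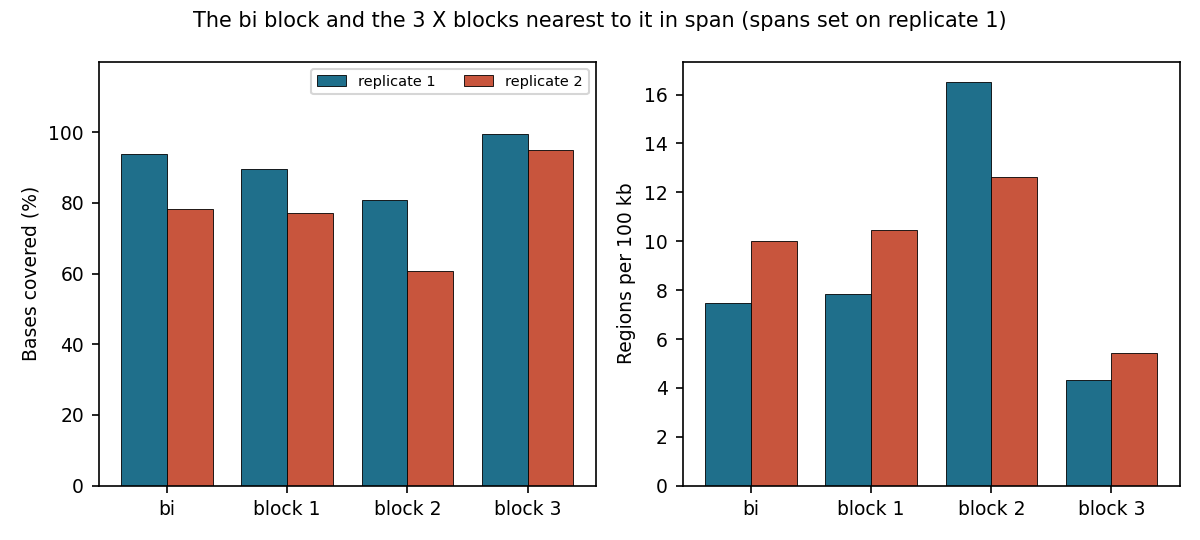
Bars give the covered share of bases (left, %) and the number of regions per 100 kb (right) in the bi block and in the 3 X blocks nearest to it in span, listed in the order of their span, for both libraries. The bi block, at 93.7% and 78.1% covered and 7.49 and 9.99 regions per 100 kb, falls between the lowest and the highest of the other blocks.

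The other T-box genes of the fly in the list used here, mid and H15 on 2L, Doc1, Doc2, Doc3 and byn on 3L, and org-1 on X, were found in the gene table by name. They were not placed on FlyBase r5, and no Polycomb value was assigned to them.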

How the data were processed

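Per the labels, chromatin from formaldehyde-fixed embryos was precipitated with antibody to Pc. The aligner Bowtie 0.12.7 appears, with no settings, among the tools of the submitters' processing notes. Positions are on FlyBase r5, per the file headers. For the region caller and its threshold, the sources used here give no name or value. Replicates were not pooled: each ChIP library has its own list. The deposited score of each region is the authors' value, of unstated scale. It was used to describe regions and to rank them within a list. Scores of both lists are printed side by side in places, but they were not put on a common scale. The median score of the whole list was 0.545 in replicate 1 and 0.605 in replicate 2. Region starts and ends were used as deposited, and no region had the same start and end in both lists.

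Sequence and motifs of the locus were not analysed here. Groups came from the sample titles. The experiment numbers in the source names of the ChIP samples are crossed against the file names. Files were taken for the samples they are recorded under, and an exchange would only swap the replicate names.

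Regions overlapping the window by at least 1 base were taken whole for counts, widths and scores, and clipped to it for covered bases. Gaps are the bases between neighbouring members. Blocks join regions under 5 kb apart, and a bin counted as covered at 50% of its bases. Every region that overlapped the window was named. The members, the window and the comparisons were chosen with earlier results of these data known. Alternatives were the joining distance, the overlap rule, the upper 50% of each list by score, the bin size, the limits of the window and the regions ranked. Depth is unknown, so no interval is given. Python 3.11.15, numpy 2.4.6, scipy 1.17.1 and matplotlib 3.10.9 were used. The overlap and joining steps were tested on 100 simulated lists against a count base by base, and matched in all 100.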

Additional observations from a re-analysis of the deposited data

How the results depend on the processing

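Of 37 values recomputed under other settings, 29 stayed within a set tolerance and 8 moved further. The tolerance was 1 SD between the libraries for shares and spans and 1.5 times for counts and ranks. For the Jaccard index and the bins, which have 1 value over both libraries, it was 1 SD between the shares of each list found in the other. Joining under 10 kb lengthened the bi block of replicate 2 to 143.2 kb and changed its rank by span on X to 1, and that of replicate 1 to 2. Joining under 1 kb left 7 regions in the block in each replicate and gave replicate 2 rank 1. Requiring 50% of both regions to overlap left 4 members found in each list. These changes follow from how the settings are built. The covered share of the window, the shared bases, the Jaccard index and the best ranks by score and width were among the values that stayed. Some of these could not move: the best width rank is the same when only regions of 10 kb or more are ranked. For spans the tolerance was wide, because the libraries themselves differed, at 160.2 kb and 101.2 kb. The count that stayed is therefore not a measure of robustness. No paired analysis was possible because values were used here for ChIP libraries alone, not for inputs of the same number. Leaving out a replicate leaves the other's own coverage, widths, scores and blocks, and gives no value for the measures that set the lists against each other. Without depth, the lists cannot show whether a gap was unenriched or under the threshold.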

Other observations

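The next Polycomb ground to the right of the bi locus was also listed in both libraries. In replicate 1 a block of 5 regions ran from 4447792 to 4516873 (69.1 kb, 93.4% covered, highest score 1.39) and was the 8th widest on X. Replicate 2 listed a block of 3 regions from 4448410 to 4467699 (19.3 kb, highest score 0.842) and one of 2 regions from 4472909 to 4520011 (47.1 kb, highest score 1.16). A single region followed, from 4533175 to 4542675 in replicate 1 (score 0.924) and from 4531667 to 4542516 in replicate 2 (score 1.27). These regions lay outside the bi window and were not assigned to a gene.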
